A study of Rattus norvegicus with 4 samples.

Results

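The enzymes that build cholesterol and fatty acids, with 3 regulators of these pathways, were followed in rat cortical neurons in which cap methyltransferase 1 (Cmtr1) had been knocked down. Members were chosen by gene symbol: 32 genes were listed, and the array carried a probe named for 31 of them, out of 30366 genes tested. These 31 comprise 17 enzymes of the sterol branch, 3 regulators and 11 genes of the fatty acid branch. The missing symbol, Scd, had no probe of that name, but a probe named Scd1 carries the transcript accession that RefSeq gives to Scd. It was added by accession after the files had been seen, and its values are given separately. Where a gene had several probes, the probe with the highest mean signal was used: 14 of the 31 genes had 1 probe and 17 had more, 52 probes in all.

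Cholesterol is made from acetyl-CoA through the mevalonate pathway, which ends at squalene, and then through a series of ring-modifying steps in the endoplasmic reticulum. Fatty acids are made from cytosolic acetyl-CoA by carboxylation, chain building, elongation and desaturation, and are then esterified to glycerol. The transcription factors SREBP-1 (Srebf1) and SREBP-2 (Srebf2) drive most of these genes, INSIG-1 holds the SREBP precursors back when sterols are plentiful, and brain cells must make their own cholesterol because lipoproteins of the blood do not enter the brain.

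All 4 cultures were primary cortical neurons from Sprague Dawley rat embryos (embryonic stage E18.5, both genders), infected with a lentivirus on day 2 in vitro and harvested on day 7. The control group (shCTL, 2 arrays) received a control shRNA and the knockdown group (shCM1, 2 arrays) an shRNA against Cmtr1. A single shRNA against Cmtr1 is named, so an effect of lower Cmtr1 and an off-target effect of that shRNA cannot be told apart. The series gives 2 independent experiments; each of 2 slides held replicate 1 or replicate 2 of both groups, always with shCTL in array position 1 and shCM1 in position 2, so group and position cannot be told apart.

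Total RNA was labelled with Cy3 and read on single-colour Agilent arrays with 41012 gene probes, of which 84.0% to 90.4% were well above background on an array. A level here is the log2 processed signal minus the log2 of that array's 75th percentile, and a difference is shCM1 minus shCTL on this log2 scale. Levels of different probes are not comparable. Every one of the 31 probes was well above background on all 4 arrays, 29 of them had a mean level above the 75th percentile, and none was saturated. Cmtr1 itself, an enzyme that adds a ribose methyl mark next to the mRNA cap, had levels of -1.43 and -1.86 in shCTL and -3.46 and -3.53 in shCM1. The groups did not overlap, and shCM1 stood at 27.7% of control (difference -1.85, SE 0.22, n = 2 per group, limma adjusted p = 1.00; with the slide as a block, SE 0.148 and adjusted p = 1.36e-07), or at 42.9% when background was handled by the normexp method.

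The upstream sequences of 4 synthesis genes that were lower in shCM1 are shown because a CCAAT box, the sequence read by NF-Y, was the searched motif held by the largest number of synthesis genes. Each sequence is the 250 bases before the transcription start in RefSeq (GRCr8), read 5′ to 3′ on the gene's strand, and capitals mark CCAAT or its reverse complement ATTGG. Hmgcs1 lies downstream of chr2:53382054-53382303 (+), Nsdhl of chrX:155817110-155817359 (+), Scd2 of chr1:253118127-253118376 (+) and Gpam of chr1:264175912-264176161 (-).
Hmgcs1: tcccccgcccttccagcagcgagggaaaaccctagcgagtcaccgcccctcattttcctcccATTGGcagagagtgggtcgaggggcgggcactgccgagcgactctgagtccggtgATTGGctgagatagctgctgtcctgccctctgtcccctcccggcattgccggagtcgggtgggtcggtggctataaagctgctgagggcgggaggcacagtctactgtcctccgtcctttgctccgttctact
Nsdhl: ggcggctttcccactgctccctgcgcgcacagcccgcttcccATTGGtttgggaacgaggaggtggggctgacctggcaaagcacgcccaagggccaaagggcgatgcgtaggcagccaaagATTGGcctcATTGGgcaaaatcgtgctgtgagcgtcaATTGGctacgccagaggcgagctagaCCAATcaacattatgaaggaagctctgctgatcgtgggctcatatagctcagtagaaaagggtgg
Scd2: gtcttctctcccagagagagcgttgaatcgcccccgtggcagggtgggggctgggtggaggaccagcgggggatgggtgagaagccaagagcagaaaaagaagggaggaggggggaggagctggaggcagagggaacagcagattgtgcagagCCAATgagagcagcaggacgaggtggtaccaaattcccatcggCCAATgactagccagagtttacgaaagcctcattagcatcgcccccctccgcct
Gpam: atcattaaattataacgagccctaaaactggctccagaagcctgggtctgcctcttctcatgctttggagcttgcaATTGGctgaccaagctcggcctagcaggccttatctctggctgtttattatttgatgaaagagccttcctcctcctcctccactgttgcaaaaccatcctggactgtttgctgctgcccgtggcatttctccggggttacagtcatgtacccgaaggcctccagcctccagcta

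These windows held 2 matches in Hmgcs1, 5 in Nsdhl, 2 in Scd2 and 1 in Gpam. Over windows of 300 bases (250 before and 50 after the start, both strands searched), CCAAT was present for 21 of the 26 members with a RefSeq promoter entry (80.8%), against 37.7% of all 27457 promoters and 38.2% of those whose gene was on the array: 11 of 14 in the sterol branch, 3 of 3 regulators and 7 of 9 in the fatty acid branch. The Sp1 motif GGGCGG was found for 19 of 26 (73.1%), against 34.9% of all promoters and 53.0% of those whose gene was on the array. The E-box CANNTG was found for 17 of 26 (65.4%), against 71.6% of all promoters and 65.8% of those whose gene was on the array. No member's window held TCACNCCAC, a sequence of SREBP sites, which 1.13% of all promoters held. Only this pattern was searched, and with so rare a pattern its absence from 26 windows does not tell whether SREBP sites are present. Acat2 and Scd had no CCAAT in this window, and Acaca had no entry. A match describes letters in a window and is not a binding site.

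Of the 31 synthesis genes, 6 were lower in shCM1 and 0 were higher by a limma fit with the slide as a block and an intensity trend (Benjamini-Hochberg over all 30366 genes, threshold 0.05). In the sterol branch these were Hmgcs1, Acat2 and Nsdhl, and in the fatty acid branch Scd2, Gpam and Acaca. That fit called 6.74% of all genes tested, 3.04% lower and 3.7% higher; among the 8610 genes whose mean level was above the 75th percentile, as for 29 of the 31, it called 7.29% lower and 2.76% higher. The members' 19.4% stands beside these backgrounds as a description. In the fit without the block, limma called 0 members and 0 of 30366 genes (0.0%). In that limma fit 909 of the 30366 genes had an unadjusted p under 0.05, among them Scd2, Gpam, Acaca and Acat2. That share of all genes is smaller than the 0.05 which such a threshold would pass if no gene differed. With the block but without the intensity trend limma again called 0 genes, with adjusted p = 0.254 for Scd2 and for Gpam. The blocked fit leaves 1 residual degree of freedom per gene beside 18.7 prior degrees of freedom drawn from all genes, so its p-values rest mostly on a spread shared across genes of like intensity. The SEs below are from the blocked fit, as are the adjusted p-values. Over the 31 genes the SE ran from 0.0702 to 0.115, and from 0.121 to 0.306 without the block. In what follows, fell and rose are used only for genes past the blocked fit with the trend. For any gene taken alone, an exact permutation of 2 against 2 arrays that ignores the slides gives a p of 0.33 at the least. Swapping groups only within slides allows fewer arrangements, so the smallest p would be larger. Under quantile normalization the blocked fit called 570 genes lower (1.88%) and 360 higher (1.19%), in place of 924 and 1124 with the 75th percentile, and 4 members remained past the threshold: Scd2, Gpam, Acaca and Acat2.

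**Figure D1:**
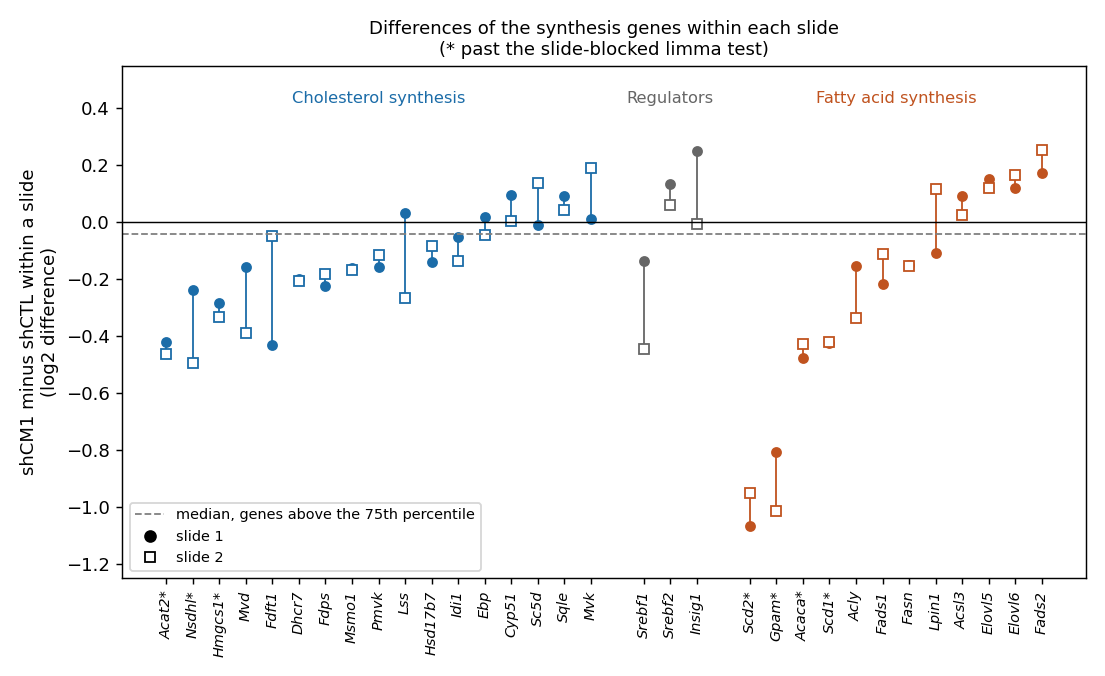
The log2 difference of shCM1 minus shCTL within slide 1 (filled) and within slide 2 (open) is plotted for each synthesis gene, ordered within the sterol branch, the regulators and the fatty acid branch. The Scd1 probe, added by accession, is drawn with the fatty acid branch. An asterisk marks the 6 genes past the slide-blocked limma test and the Scd1 probe. The dashed line is the median of genes above the 75th percentile (-0.04). Scd2 and Gpam lie far below the others, at -0.81 or lower on both slides.

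The fatty acid branch held the largest differences of the set. Scd2, the stearoyl-CoA desaturase that places the double bond of oleic acid and is prominent in brain, had levels of 8.01 and 7.76 in shCTL and 6.94 and 6.80 in shCM1. Both shCM1 arrays lay below both shCTL arrays, and Scd2 fell by 1.01 (SE 0.0711, n = 2 per group), to 49.6% of control (blocked limma, adjusted p = 3.51e-08). The within-slide differences were -1.07 and -0.95. Its probe lies at chr1:249370837-249370896 of the rn4 build, and 2 other Scd2 probes, at lower signal, had differences of -0.82 and -1.30.

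Gpam, the mitochondrial enzyme that attaches the first acyl chain to glycerol phosphate, had levels of 4.89 and 4.77 in shCTL and 4.08 and 3.75 in shCM1. The groups did not overlap, and Gpam fell by 0.91 (SE 0.0829), to 53.2% of control (blocked limma, adjusted p = 8.5e-07), with -0.81 and -1.02 within the slides. The probe lies at chr1:261367125-261367184 (rn4). A second, dimmer Gpam probe, whose rn4 interval is much longer than a probe, was lower by a smaller amount, -0.24 and -0.25 within the slides. Scd2 and Gpam were the only 2 synthesis genes at least 1.5-fold lower on both slides, a size that 0.619% of all genes reached, and 0 were that much higher, against 1.79% of all genes.

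Acaca, the acetyl-CoA carboxylase of the committed step, had levels of 5.16 and 4.96 in shCTL and 4.68 and 4.53 in shCM1. It fell by 0.45 (SE 0.0780), to 73.2% of control (blocked limma, adjusted p = 0.00119), with no overlap between groups. The probe lies at chr10:72678945-72679004 (rn4), and the gene's other probe, which was much dimmer, differed in the opposite direction, by 0.09 and 0.19 within the slides. The mean of both probes gave -0.15 for Acaca (adjusted p = 0.312). The probe named Scd1, for the desaturase that RefSeq calls Scd, had levels of 2.53 and 2.85 in shCTL and 2.11 and 2.42 in shCM1. It was lower by 0.42 on each slide (SE 0.0884), at 74.6% of control, with adjusted p = 0.00606 in the blocked limma fit and 0.0501 after quantile normalization. Without shCTL replicate 2 or without shCM1 replicate 1, its difference was -0.27 or -0.26.

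Of the remaining genes of this branch, 3 were lower on both slides without passing the test. Acly, which makes cytosolic acetyl-CoA from citrate, had levels of 5.82 and 5.94 in shCTL and 5.668 and 5.599 in shCM1, a difference of -0.24 (SE 0.0774, adjusted p = 0.0625 with the block in limma). Fasn, the fatty acid synthase, differed by -0.15 and the polyunsaturated fatty acid desaturase Fads1 by -0.17. Acly and Fasn showed no overlap between groups, whereas the Fads1 groups overlapped.

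The other 5 genes of this branch were at or above control. Fads2, the companion desaturase of Fads1, had levels of -0.16 and -0.28 in shCTL and 0.01 and -0.02 in shCM1 and was the only synthesis gene whose shCM1 values were both above the shCTL values (difference 0.21, SE 0.108, limma adjusted p = 0.244 with the block). Groups without overlap in the higher direction, by any amount, were found for 21.6% of all genes. The elongases Elovl5 and Elovl6 each differed by 0.14, the acyl-CoA synthetase Acsl3 by 0.06 and the phosphatidate phosphatase Lpin1 by 0.00 (-0.11 and 0.12 on the slides). Within this branch the differences ran from -1.01 to 0.21.

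**Figure D2:**
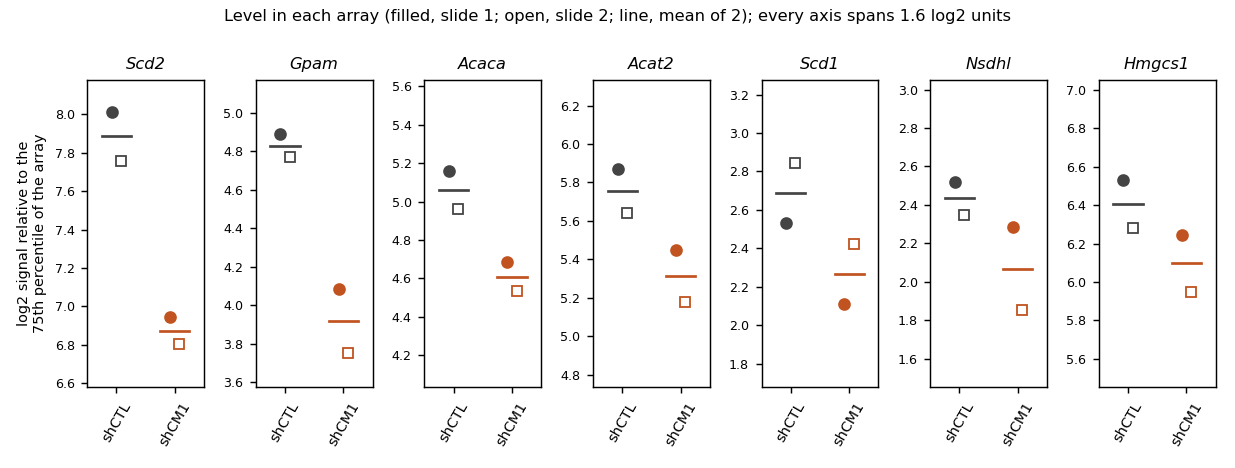
The level in each array (log2 signal relative to the array's 75th percentile) is plotted for the 6 genes past the slide-blocked test and for the Scd1 probe, with shCTL in grey and shCM1 in orange, slide 1 filled and slide 2 open, and a line at each group's mean of 2. Every axis spans the same number of log2 units; the shCM1 points lie below both shCTL points in every panel, and the gap is widest for Scd2.

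Of the 3 sterol enzymes that fell, Acat2 and Hmgcs1 act at the start of the pathway and Nsdhl in its late part. Acat2, the cytosolic thiolase that joins acetyl-CoA units, had levels of 5.87 and 5.64 in shCTL and 5.45 and 5.18 in shCM1. The groups did not overlap, and Acat2 fell by 0.44 (SE 0.0755), to 73.5% of control (blocked limma, adjusted p = 0.00104), with -0.42 and -0.46 within the slides. Its probe lies at chr1:41939864-41939923 (rn4). A second probe with very low signal differed by 0.82 and 0.26 within the slides, and the mean of both probes gave 0.05 for Acat2 (adjusted p = 0.817).

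Hmgcs1, the cytosolic HMG-CoA synthase, had levels of 6.53 and 6.28 in shCTL and 6.25 and 5.95 in shCM1. The highest shCM1 array lay just under the lowest shCTL array, and Hmgcs1 fell by 0.31 (SE 0.0732), to 80.7% of control (blocked limma, adjusted p = 0.0141). The probe lies at chr2:51754420-51754478 (rn4), and the gene's other probe differed by -0.01 and -0.19 within the slides. The adjusted p of Hmgcs1 was 0.0851 after quantile normalization and 0.0884 on the authors' values, and its difference was -0.18 without shCTL replicate 1 and -0.16 without shCM1 replicate 2.

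Nsdhl, a dehydrogenase that removes methyl groups from the sterol ring, had levels of 2.52 and 2.35 in shCTL and 2.28 and 1.85 in shCM1. It fell by 0.37 (SE 0.0943), to 77.6% of control (blocked limma, adjusted p = 0.0233), and the groups did not overlap. The probe lies at chrX:158955914-158955973 (rn4), and a second Nsdhl probe was lower by -0.26 and -0.17 within the slides. The adjusted p of Nsdhl was 0.11 after quantile normalization and 0.136 on the authors' values. Its difference was -0.15 without shCM1 replicate 2 and -0.58 without shCM1 replicate 1.

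The other 14 sterol enzymes did not pass. Mvd, the mevalonate diphosphate decarboxylase, came closest, with levels of 4.16 and 4.18 in shCTL and 4.003 and 3.793 in shCM1 (difference -0.27, SE 0.0850, limma adjusted p = 0.0595 with the block). Fdft1, the squalene synthase, differed by -0.24, but by -0.43 on slide 1 and -0.05 on slide 2. The prenyl diphosphate synthase Fdps and the last reductase of one route to cholesterol, Dhcr7, each differed by -0.20, Msmo1 by -0.16, Pmvk by -0.14, Lss by -0.12, Hsd17b7 by -0.11 and Idi1 by -0.10. Lss (0.03 and -0.27) and the isomerase Ebp (0.02 and -0.05, mean -0.01) had opposite signs on the slides. Leaving out 1 array brought Msmo1 to -0.0048, Pmvk to -0.0497 and Fdps to -0.0554 at the nearest to 0.

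Squalene epoxidase (Sqle, 0.07), lanosterol demethylase (Cyp51, 0.05), the desaturase Sc5d (0.06, with -0.01 and 0.14 on the slides) and mevalonate kinase (Mvk, 0.10) lay at or slightly above control. The 3 regulators did not pass either. Srebf1 had levels of 3.33 and 3.63 in shCTL and 3.19 and 3.18 in shCM1, a difference of -0.29 (SE 0.0910, limma adjusted p = 0.0605 with the block) without overlap, which was -0.14 without shCTL replicate 2 and -0.44 without shCTL replicate 1. Srebf2 differed by 0.10 and Insig1 by 0.12, with overlapping groups. The Insig1 probe used had 0.25 on slide 1 and -0.005 on slide 2, and the 4 Insig1 probes gave differences of 0.12 to 0.18.

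**Figure D3:**
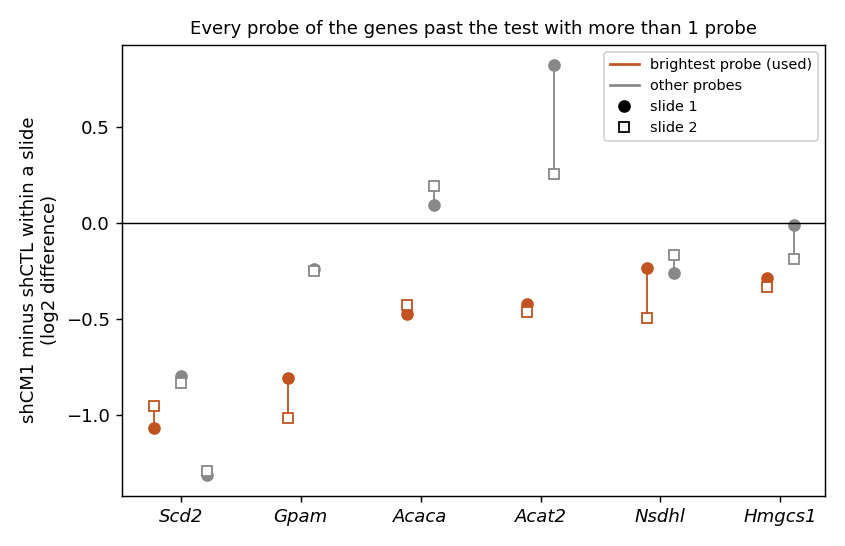
The within-slide log2 difference of every probe is plotted for the 6 genes past the slide-blocked test, with the brightest probe, which was used, in orange and the others in grey (slide 1 filled, slide 2 open). All 3 Scd2 probes and both probes of Gpam, Nsdhl and Hmgcs1 lie below 0 on both slides, while the second probes of Acaca and Acat2 lie above 0.

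As groups, the branches had similar medians and different ranges. The sterol branch had a median difference of -0.14 (-0.16 on slide 1 and -0.14 on slide 2) and a range of -0.44 to 0.10. The fatty acid branch had a median of -0.15 (-0.15 and -0.11), or -0.16 with the Scd1 probe, and the regulators 0.10. The median was 0.08 over all genes tested and -0.04 over genes above the 75th percentile. After quantile normalization these medians were -0.06 for the sterol branch, -0.07 for the fatty acid branch, 0.01 for all genes and 0.00 for genes above the 75th percentile. No test of the difference between branches was made.

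On both slides 18 of the 31 genes were lower in shCM1, 8 were higher and 5 changed sign between slides. The sterol branch had 11 of 17 lower (64.7%) and the fatty acid branch 6 of 11 (54.5%), against 22.6% of all genes and 43.1% of genes above the 75th percentile. Higher on both slides were 44.0% of all genes and 25.2% of genes above the 75th percentile. Groups were apart in the lower direction for 10 synthesis genes, a pattern that 10.1% of all genes and 20.9% of genes above the 75th percentile showed. All of these counts are given for the 75th percentile scaling only.

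Levels of the synthesis genes also differed between the slides. Replicate 2 was lower than replicate 1 in both groups for 24 of the 31 genes (77.4%), against 41.5% of all genes and 51.6% of genes above the 75th percentile. In the sterol branch, the median of replicate 2 minus replicate 1 was -0.23 in shCTL and -0.27 in shCM1, and 14 of 17 genes were lower in both groups. In the fatty acid branch it was -0.19 and -0.15, with 9 of 11 lower in both groups. The gap between replicates exceeded the gap between groups for 18 of the 31 genes, 11 of them in the sterol branch and 5 in the fatty acid branch; that share, 58.1%, compares with 62.7% of all genes and 65.2% of genes above the 75th percentile. Ebp, for example, had 3.67 and 3.06 in shCTL and 3.69 and 3.02 in shCM1.

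The 10 astrocyte markers had a median of replicate 2 minus replicate 1 of 0.61 in shCTL and 0.41 in shCM1, with 2 of them lower in replicate 2 in both groups, while the 10 neuron markers had -0.17 and -0.31. The part of cell composition in the slide difference of the synthesis genes was not tested. In RNA from whole cultures, fewer cells of a type and less RNA per cell cannot be told apart.

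**Figure D4:**
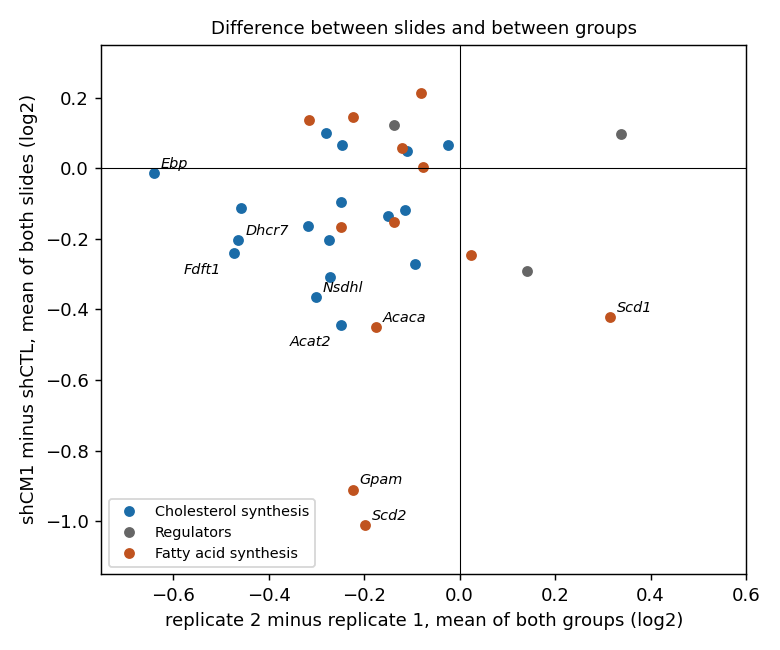
For each synthesis gene, the log2 difference of replicate 2 minus replicate 1 (mean of both groups) is on the horizontal axis and shCM1 minus shCTL (mean of both slides) on the vertical axis, coloured by branch. The Scd1 probe is drawn with the fatty acid branch. Most points lie left of 0, Scd2 and Gpam lie far below the rest, and Ebp has the widest slide gap with almost no difference between groups.

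Between shRNA groups, the marker lists moved as follows, in the same blocked limma fit. None of the 10 astrocyte markers passed (median difference -0.07), and their summed signal, in units of the array's 75th percentile, was 123 to 138 in shCTL and 134 to 137 in shCM1. Of 9 microglia markers measured, 6 rose and all 9 were higher on both slides, with a median difference of 0.97 (0.42 with normexp), while their summed signal was low, 1.18 to 1.34 in shCTL and 2.12 to 2.40 in shCM1. Among 10 neuron markers Tubb3 (-0.37) and Neurod6 (-0.62) fell and Gad1 rose (0.52), with a summed signal of 218 to 287 in shCTL and 195 to 265 in shCM1.

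Among the 10 oligodendrocyte lineage markers, Mbp rose (0.52) and Cspg4 fell (-0.35), with summed signals of 50.8 to 59.2 and 45.6 to 57.9. Of the 5 fibroblast markers Col1a2 and Dcn rose (summed signals 1.491 to 1.502 and 1.68 to 2.01), and 0 of 5 endothelial markers passed. The part of these shifts in the differences of the synthesis genes was not tested.

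A further 41 genes of sterol and fatty acid metabolism were read beside the synthesis genes: sensors and proteases that act on SREBPs, transporters, acyltransferases, elongases and oxysterol-responsive genes. Of the 40 measured, 0 rose and 1 fell in the blocked limma fit (2.5%, against 3.04% of all genes), and the median difference was 0.07. On both slides 19 of the 40 were higher and 7 lower (17.5%). Of all genes tested, 44.0% were higher and 22.6% lower on both slides. The gene that fell was Mid1ip1, whose product binds acetyl-CoA carboxylase and promotes its activity: its levels were 3.02 and 3.65 in shCTL and 2.77 and 3.13 in shCM1. Those groups overlapped, and the difference was -0.39 (SE 0.0906, adjusted p = 0.0133). Within the slides Mid1ip1 differed by -0.25 and -0.52.

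Next by the smaller of the within-slide differences was Erlin2 (-0.18), an endoplasmic reticulum protein of sterol-regulated degradation, which did not pass. At the other end stood Agpat2, Soat1 and Ggps1, none of which passed. Soat1, which esterifies cholesterol for storage, had levels of -3.13 and -3.24 in shCTL and -2.67 and -2.77 in shCM1, a difference of 0.47 (SE 0.152, adjusted p = 0.0685 with the block in limma) without overlap. Ggps1, which makes geranylgeranyl diphosphate, differed by 0.27. The acyltransferase Agpat2 differed by 1.34, but was well above background on 1 of 2 shCTL arrays, and with normexp its difference was 0.19.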

How the data were processed

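Per the file headers, the deposited scanner files came from Feature Extraction 10.7.3.1 and hold linear intensity per spot. The processed signal was used, which that software had background-corrected. Control spots and outlier-marked spots were left out, and spots of a probe were averaged. The signal was divided by the array's 75th percentile (652.2 and 754.5 in shCTL, 596.3 and 743.7 in shCM1), taken to log2 and kept where the probe was well above background on at least 2 of 4 arrays, leaving 30366 genes by their brightest probe.

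The authors' deposited value table was read as a linear signal and used as an alternative after log2: on the log2 scale each column correlated at 0.9998 or more with its array's processed signal, its direction is therefore that of the signal, and the column medians were 117.7 and 131.9 in shCTL and 117.6 and 132.0 in shCM1. Its normalization and any centring are not given in the sources used here.

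The comparison of groups used limma 3.58.1 under R 4.3.3 (2-sided, Benjamini-Hochberg over all genes, intensity trend), with no covariate and with the slide as a block. Replicate number, slide and scan split the arrays in the same way. Deviations of same-slide arrays from their group means correlated at 0.713 over genes, and the series design names independent experiments. Whether cultures within an experiment were separate is not stated, so p-values refer to these arrays only. In the blocked fit they rest mostly on a spread shared across genes, as given above. On simulated data with 100 genes changed by each fold, the blocked fit recovered 39 at a log2 change of 0.5 and 82 at 1. The blocked fit made 10 false calls there, and the unblocked fit recovered 0 and 0. The simulated noise had the spreads that the blocked fit with the trend gave these data, with the observed slide effects added. The simulation therefore cannot show whether the spread assumed by that fit holds here. Precision is limited by having 2 arrays a group.

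The genes named were all members, Cmtr1, up to 3 other pathway genes in each direction by the smaller within-slide difference of the same sign, and any past the test. Scd1 was named by accession. Some genes that this rule or the marker lists would name are not reported here. Members and lists were chosen with earlier results of these data known. Alternatives were scaling, background, filter, trend, probe choice, the authors' table and leaving out each array. No genome of the rn4 build was used here.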

Additional observations from a re-analysis of the deposited data

How the results depend on the processing

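Every alternative that joins the slide block with another choice, other than the one without the intensity trend, was added after seeing the data, as was the inclusion of Scd1. Adding the slide as a replicate block raised the genes called from 0 to 2048, the members called from 0 to 6 and the other pathway genes called from 0 to 1, and brought Cmtr1 (-1.85, adjusted p = 1.36e-07 in limma, 1.00 without the block) past the threshold. With that block, 930 genes were called after quantile normalization, 930 after cyclic loess, 686 on the authors' table and 367 with no filter on dim probes, and 0 without the intensity trend. Members called with the block were 0 without the trend and 2 (Scd2 and Gpam) with the mean of a gene's probes. The other pathway genes called with the block were 0 in each of these 6 settings. Of single genes, the mean of probes turned Acat2 to 0.0485, and normexp turned Sc5d to -0.00485. Ebp turned to 0.0549 (quantile), 0.0567 (cyclic loess), 0.0617 (normexp) and 0.058 (authors' table), and Lpin1 to -0.0336, -0.0182, -0.0153 and -0.033 in the same order.

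Leaving out 1 array left its slide with 1 group and a group with 1 array, which was assumed to vary like the other group. Without the block, the genes called were then 0 to 1 (the 1 without shCTL replicate 2), and the members called 0 to 0. The sterol median ran from -0.33 (without shCM1 replicate 1) to 0.0139 (without shCM1 replicate 2), the fatty acid median from -0.22 to -0.015 and the regulators' from -0.0896 to 0.12. The differences that changed sign ran from -0.0845 to 0.29 for Mvk, -0.24 to 0.05002 for Idi1, -0.57 to 0.0923 for Fdft1, -0.0685 to 0.20 for Sqle, -0.25 to 0.0139 for Lss, -0.029 to 0.13 for Cyp51, -0.35 to 0.13 for Hsd17b7, -0.35 to 0.32 for Ebp, -0.44 to 0.0304 for Dhcr7, -0.0105 to 0.25 for Insig1, -0.0896 to 0.28 for Srebf2, -0.0287 to 0.30 for Elovl5, -0.0189 to 0.14 for Acsl3 and -0.0905 to 0.0972 for Lpin1. Among genes that kept their sign, the difference ran from -0.32 to -0.0048 for Msmo1, -0.35 to -0.0554 for Fdps, -0.22 to -0.0497 for Pmvk, -0.38 to -0.17 for Mvd, 0.0148 to 0.11 for Sc5d, -0.44 to -0.14 for Srebf1, -0.22 to -0.0816 for Fasn, 0.0202 to 0.27 for Elovl6 and -0.32 to -0.015 for Fads1. The 6 called members and Scd1 kept their sign. In these fits without the block, the change in a gene's difference is set by the gap between replicates of the group that lost an array. Replicate and slide split the arrays in the same way, so that gap includes the slide difference. What lay behind the gap, or behind the changes under other settings, was not tested.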
